A study of Chlamydomonas reinhardtii with 28 samples.

Results

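The genes of DNA replication and DNA repair were followed in 7 laboratory strains of *Chlamydomonas reinhardtii*, a unicellular green alga. Genes were taken by their definition in the deposited expression table, which had to contain a phrase such as DNA replication, minichromosome, replication factor, DNA polymerase, primase, origin recognition, proliferating cell nuclear antigen, DNA repair, mismatch repair or excision repair. This gave 63 of the 17611 genes. The phrases GINS and ribonucleotide reductase, also searched, matched 0 genes. Basal mRNA levels were measured in 4 replicate cultures each of CC-4533, CC-125, CC-124, CC-1690, CC-1009, CC-4532 and CC-1691, all used as wild type. CC-125 and CC-1690 are of the plus mating type and the other 5 strains are of the minus mating type. All 28 cultures were untreated and were harvested in mid-log phase from acetate-containing medium (TAP with a revised trace metal mix), shaken at 180 rpm under 50 to 70 µmol photons per square meter and second, so the groups differed by strain and by no treatment. The library names carry a 2 for CC-125 and CC-4533 and a 1 for the other 5 strains, called library sets 2 and 1 here although the meaning of the number is not stated, and what sets these 2 strains apart from the rest therefore cannot be told apart from the library set.

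Replication starts where the origin recognition complex (ORC) and CDT1 load the MCM2 to MCM7 ring, the replicative helicase, onto DNA. Primase and DNA polymerase alpha then lay down primers, replication factor C (RFC) places the sliding clamp PCNA at them, and polymerases delta and epsilon copy the strands. Mismatch repair and excision repair remove wrong or damaged bases, and translesion polymerases copy across damage that remains. In *Chlamydomonas*, cells grow over many hours and then divide several times in quick succession, and transcripts of the replication machinery are known to accumulate around that division.

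Levels were given as FPKM, in which the fragments of a gene are scaled by its length and by the depth of the library. Since only FPKMs were used, the depth is unknown and values near 0 have unknown precision. The FPKMs of a library summed to between 480355 and 1319895, and 16121 to 16594 genes were listed above 0. MID1, which specifies minus gametes, had 3.12 to 11.4 FPKM in the minus strains and 0 to 0.08 FPKM in the plus strains, in keeping with their labels. Replicate 3 of CC-4533 stood apart: it differed by over 2-fold from the average of replicates 1, 2 and 4 in 21.0% of the genes tested, while no other library differed from its own replicates in more than 4.0%. Its value is therefore marked beside CC-4533 values of single genes, and strain means include it unless stated. Genes were tested with limma on log2(FPKM + 0.1) over all 28 libraries, with p-values adjusted over the 14785 genes whose mean exceeded 1 FPKM in some strain. Of the 63 genes, 57 passed this filter. MLH3 passed it on the mean of CC-124 alone, POL1B on that of CC-4533 alone and XPF1 on that of CC-4532 alone.

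Strain means lay further apart for replication genes than for most repair genes. A gene was called when the moderated F test over the 7 strains had an adjusted p below 0.01 and the highest strain mean exceeded the lowest by more than 2-fold. This held for 43 of the 57 genes, against 65.2% of all genes tested. It held for all 28 genes of origin recognition, the MCM family, the replicative polymerases and the clamp, for 4 of 6 mismatch repair genes, for 7 of 15 excision repair genes, for 2 of 5 translesion and repair polymerases and for both organellar polymerases tested. The highest strain mean was 4.62 times the lowest for the median MCM gene, 4.93 times for the median replicative polymerase or primase gene and 2.00 times for the median excision repair gene, against 2.38 times for the median of all genes tested. Without CC-4533 replicate 3 the call held for 46 of 58 genes, against 66.0% of all genes, and within the 5 strains of library set 1 it held for 39 of 56, against 50.0% of all genes in that fit.

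**Figure D1:**
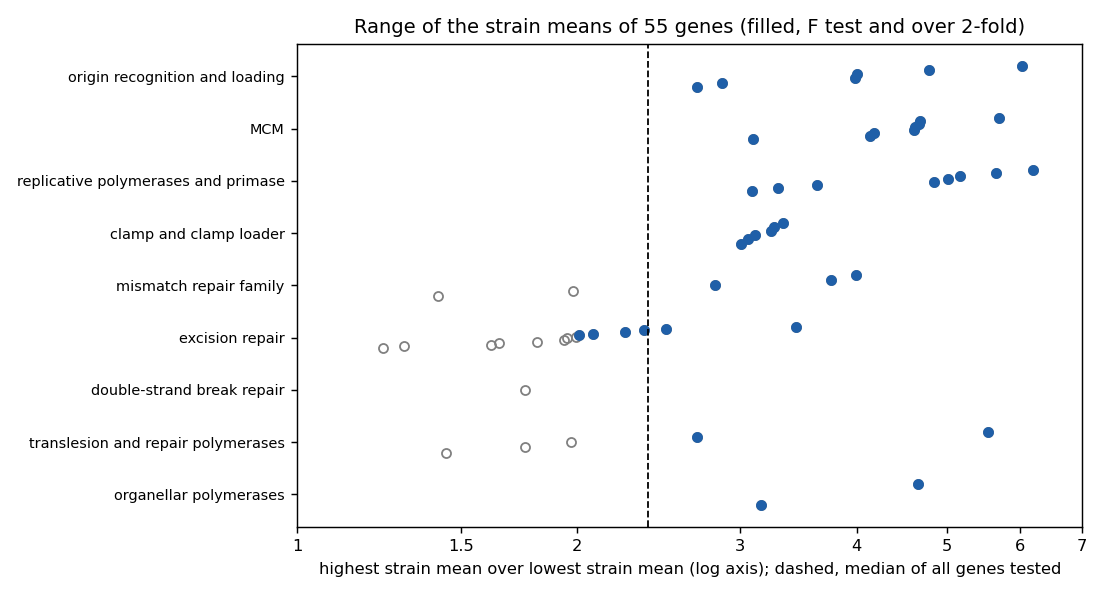
Highest strain mean over lowest strain mean (log axis) of 55 genes, 1 point each, in rows by role, without AGE1, which was listed near 0 in CC-4533, and without 1 gene not reported here. Filled points passed the F test with a range over 2-fold, open points did not, and the dashed line is the median of all genes tested (2.38). The MCM genes lie between 3.09 and 5.69 and the excision repair genes drawn lie between 1.24 and 3.44.

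The origin recognition genes other than ORC6 had their highest strain mean in CC-4533, and all 6 had their lowest in CC-1009 or CC-4532. Of all genes, 16.1% had their highest mean in CC-4533, 11.8% their lowest in CC-1009 and 12.2% their lowest in CC-4532. ORC1, an ATPase subunit of the complex, was at 5.21, 4.88 and 5.33 FPKM in CC-4533 replicates 1, 2 and 4 and at 1.53 FPKM in replicate 3, against a lowest value of 0.80, a median of 1.53 and a highest value of 3.20 FPKM in the 24 libraries of the other strains. The 3 replicates lay above all others and replicate 3 lay at the median of the other strains. The difference of CC-4533 from the mean of the other 6 strains was 1.21 ± 0.21 (log2, SE, adjusted p = 2.42e-05) with all 4 replicates and 1.63 ± 0.16 without replicate 3 (adjusted p = 3.57e-09). CDT1, the loader of the MCM ring, was at 2.71, 2.29 and 3.29 FPKM in CC-4533 replicates 1, 2 and 4 and at 0.93 FPKM in replicate 3, against 0.31, 0.685 and 1.69 FPKM as the lowest, median and highest value of the other strains. Its CC-4533 difference was 1.42 ± 0.22 (adjusted p = 6.1e-06), and 1.78 ± 0.20 without replicate 3.

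ORC2, ORC4 and ORC5, which form the core of the complex with ORC1, shared the order of the 3 highest strain means with it (CC-4533, CC-124, CC-1690) but not the order below them, with CC-4533 differences of 1.03, 1.11 and 0.83. ORC6, a small subunit, was the exception with all 4 replicates. It was at 5.05, 5.05 and 4.89 FPKM in CC-4533 replicates 1, 2 and 4 and at 1.10 FPKM in replicate 3, the lowest value of all 28 libraries, and at 5.43, 2.99, 4.05 and 5.68 FPKM in CC-124. Its difference in CC-4533 was 0.48 ± 0.23 (adjusted p = 0.0795) and became 1.00 ± 0.15 without replicate 3 (adjusted p = 2.79e-06). In CC-4533, 5 of the 6 origin genes were thus called higher with all replicates (29.2% of all genes) and 6 of 6 without replicate 3 (31.2% of all genes). In CC-1009, all 6 were called lower (24.5% of all genes).

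The 6 subunits of the MCM2 to MCM7 ring moved together from library to library. Within a library, the highest of the 6 was 1.17 to 2.33 times the lowest, while the sum of the 6 ranged more widely between libraries. That sum was 169, 164 and 168 FPKM in CC-4533 replicates 1, 2 and 4 and 41.2 FPKM in replicate 3. It was 45.1 to 62.5 FPKM in CC-125, 29.6 to 37.2 FPKM in CC-1009, 56.4 to 70.9 FPKM in CC-1691 and 32.9 to 50.0 FPKM in CC-4532. In CC-124 it was 138, 110 and 119 FPKM in replicates 1, 3 and 4 and 71.0 FPKM in replicate 2, and in CC-1690 it was 101, 126 and 114 FPKM in replicates 1, 3 and 4 and 56.03 FPKM in replicate 2. CC-4533, CC-124 and CC-1690 thus each had 1 library well below the other 3, while the 16 libraries of the other strains all lay between 29.6 and 70.9 FPKM. In bulk RNA, more dividing cells and more mRNA per dividing cell cannot be told apart.

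**Figure D2:**
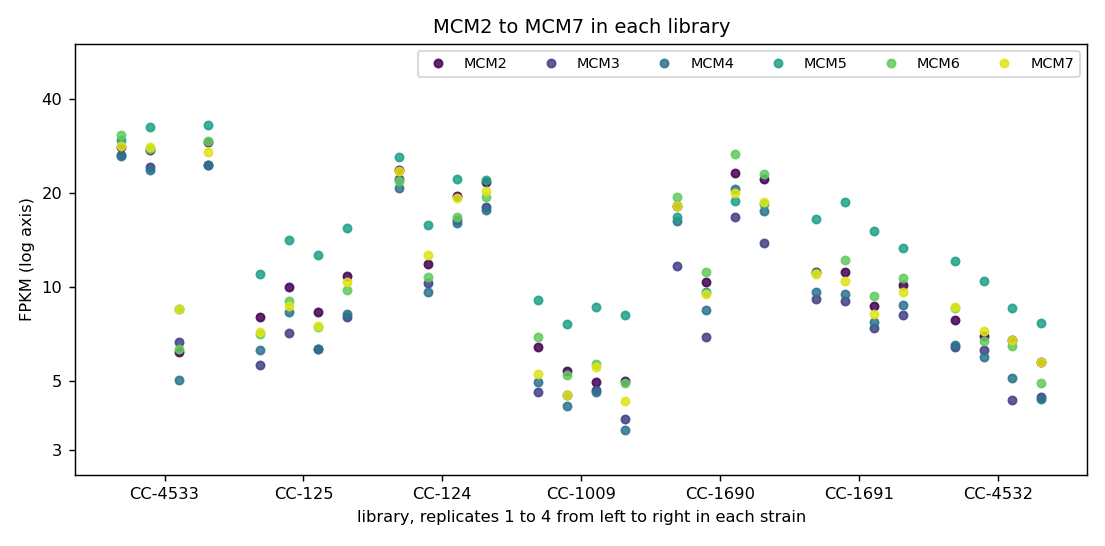
FPKM (log axis) of the 6 subunits MCM2 to MCM7 in each of the 28 libraries, with replicates 1 to 4 of a strain from left to right and 1 color per subunit. The subunits rise and fall together: their sum is 169 FPKM in CC-4533 replicate 1, 41.2 FPKM in CC-4533 replicate 3 and 29.6 FPKM in CC-1009 replicate 4.

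MCM7 was at 28.2, 28.1 and 27.1 FPKM in CC-4533 replicates 1, 2 and 4 and at 8.5 FPKM in replicate 3, against 4.32, 9.08 and 23.5 FPKM as the lowest, median and highest value of the other 24 libraries. Its difference in CC-4533 was 1.09 ± 0.21 (adjusted p = 0.000103). In CC-1009 it was at 5.25, 4.51, 5.54 and 4.32 FPKM, and every one of these 4 values lay below every library of the other 6 strains (difference -1.32 ± 0.21, adjusted p = 1.29e-05). The nearest other library was CC-4532 replicate 4, at 5.74 FPKM. MCM7 was the only gene of the 57 for which the 4 CC-1009 libraries lay wholly below the rest. The share of all genes that did so was not counted. MCM5 was the most abundant subunit in every library of CC-125, CC-124, CC-1009, CC-1691 and CC-4532, whereas MCM6 was the most abundant in all 4 libraries of CC-1690. MCM6 was at 19.4, 11.2, 26.7 and 23.0 FPKM in CC-1690 and MCM5 at 16.8, 9.64, 18.9 and 18.4 FPKM there.

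MCM10, which helps to activate the loaded helicase, and MCM8, a relative of the ring subunits that acts in recombinational repair in animals, were expressed below the ring genes in every library and were also lowest in CC-1009. MCM10 was at 2.33, 2.90 and 2.83 FPKM in CC-4533 replicates 1, 2 and 4, 0.62 FPKM in replicate 3, and 3.05, 1.25, 2.27 and 2.59 FPKM in CC-124, so these strains overlapped. MCM8 was at 3.82, 3.34 and 3.15 FPKM in CC-4533 replicates 1, 2 and 4 and at 1.03 FPKM in replicate 3, against at most 2.57 FPKM in any other strain. In CC-4533, 8 of 8 MCM genes were called higher (29.2% of all genes), with differences of 0.78 to 1.20. In CC-1009, 8 of 8 were called lower (24.5% of all genes).

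Among the replicative polymerases, CC-4533 had the highest strain mean for 7 of 8 genes, against 16.1% of all genes. POLE1, the catalytic subunit of polymerase epsilon, the leading-strand enzyme, showed the largest positive CC-4533 difference of the 57 genes with all 4 replicates (1.50 ± 0.16, adjusted p = 7.79e-09), while without replicate 3 POLA2 (1.92), CDT1 (1.78), POLA1 (1.76) and POLE2 (1.71) exceeded it (1.70). It was at 6.79, 6.66 and 7.13 FPKM in CC-4533 replicates 1, 2 and 4 and at 3.94 FPKM in replicate 3, against 0.87, 2.29 and 4.42 FPKM as the lowest, median and highest value of the other strains. Replicate 3 was less reduced here than for the MCM genes, at 0.574 times the mean of the other replicates, where MCM7 was at 0.306 times. POLE1 was also the gene with the largest negative difference in CC-1009, at 1.10, 0.87, 1.07 and 0.92 FPKM (-1.39 ± 0.16, adjusted p = 4.27e-08).

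POLA1 and POLA2, both annotated as catalytic subunits of polymerase alpha, were at 8.98 to 11.3 and at 12.1 to 13.0 FPKM in CC-4533 replicates 1, 2 and 4 and at 2.78 and 2.79 FPKM in replicate 3. Their highest values in any other strain were 6.31 and 7.63 FPKM. POLD1 and POLD2, the catalytic and the small subunit of polymerase delta, had CC-4533 differences of 0.96 and 0.95, and POLE2, the second subunit of polymerase epsilon, had one of 1.21. POLA4, annotated as the primase subunit of polymerase alpha, was at 29.2, 25.3 and 28.9 FPKM in CC-4533 replicates 1, 2 and 4 and kept 18.2 FPKM in replicate 3, above all libraries of CC-125, CC-1009, CC-1691 and CC-4532.

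PRI2, annotated as the large subunit of DNA primase, broke the common order of strains. In CC-1009, 7 of the 8 polymerase and primase genes were called lower, against 24.5% of all genes. PRI2 was at 8.32, 9.94, 10.4 and 11.6 FPKM there and was called higher (1.44 ± 0.22, adjusted p = 7.58e-06). It was at 8.07, 8.46 and 7.84 FPKM in CC-4533 replicates 1, 2 and 4 and at 2.14 FPKM in replicate 3, at 2.45 to 3.11 FPKM in CC-125 and at 1.67 to 2.65 FPKM in CC-4532. POLA4, its primase partner by annotation, was at 9.26, 8.23, 8.91 and 7.90 FPKM in CC-1009 and at 7.25 to 9.02 FPKM in CC-4532. The level of PRI2 over that of POLA4 was therefore not constant between strains.

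For the clamp and its loader, CC-1690 had the highest strain mean in 4 of 6 genes and CC-4533 in 1, but without CC-4533 replicate 3 CC-4533 had it in 4 and CC-1690 in 1. Of all genes, 22.0% had their highest mean in CC-1690 and 16.1% in CC-4533, and 21.4% and 16.3% did without that replicate. PCN1, which encodes PCNA, the clamp that tethers the polymerases to DNA, was the most abundant of the 63 genes. It was at 95.5, 96.6 and 103 FPKM in CC-4533 replicates 1, 2 and 4 and 24.7 FPKM in replicate 3, at 79.1, 62.6, 96.2 and 98.5 FPKM in CC-1690 and at 24.7 to 29.4 FPKM in CC-1009. The CC-4533 replicates other than replicate 3 overlapped CC-1690 and CC-124, and replicate 3 equalled the lowest CC-1009 library. RFC2 was at 31.5, 27.0, 37.0 and 34.1 FPKM in CC-1690, against 24.4, 25.8 and 28.5 FPKM in CC-4533 replicates 1, 2 and 4, and had the largest CC-1690 difference of the clamp genes (1.19 ± 0.14, adjusted p = 5.31e-08). All 6 genes were called higher in CC-1690 (0.66 to 1.19) and all 6 in CC-4533 (0.54 to 1.14), comparisons that share their other libraries. Of all genes, 34.2% were called higher in CC-1690 and 29.2% in CC-4533. RFC3, another loader subunit, was at 21.2, 11.5, 16.9 and 17.02 FPKM in CC-124, overlapping CC-4533 replicates 1, 2 and 4 (16.6, 15.5 and 17.2 FPKM) and CC-1690 (11.4 to 19.6 FPKM). RFC4 and RFC5 were at 9.01 to 17.1 and at 12.5 to 21.2 FPKM in CC-1690, overlapping CC-4533 as well. RFC1, the large loader subunit, had its highest strain mean in CC-4533, at 9.45, 7.97 and 9.08 FPKM in CC-4533 replicates 1, 2 and 4, against at most 6.82 FPKM in any other strain.

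**Figure D3:**
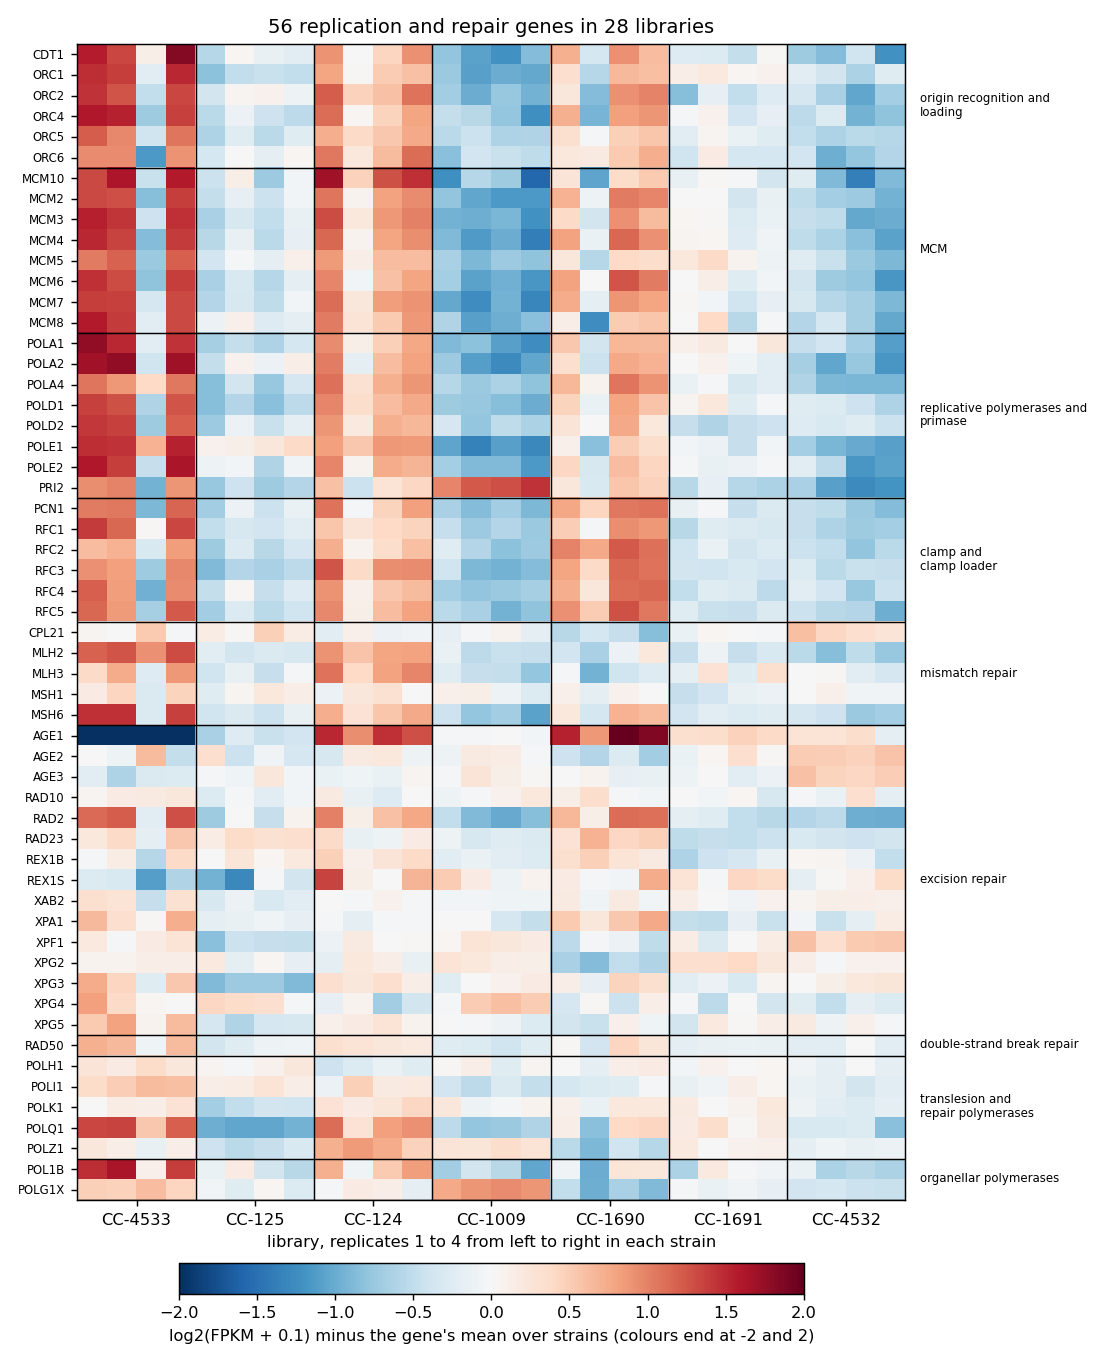
Level of 56 genes (rows, grouped by role) in 28 libraries (columns, replicates 1 to 4 from left to right), as log2(FPKM + 0.1) minus the mean of the gene over strains, with colors ending at -2 and 2. In the upper 4 blocks, most rows are red in CC-4533 except in replicate 3, red in CC-124 and in most libraries of CC-1690, and blue in CC-1009 and CC-4532. PRI2 is red in CC-1009, and the excision repair rows other than AGE1 are mostly pale.

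Over all roles, 43 of 57 genes were called higher in CC-4533 than in the average of the other strains, where 29.2% of all genes were, and 3 were called lower (AGE1, AGE3 and REX1S), where 30.3% of all genes were. The 43 include POL1B, which passed the filter through CC-4533 alone. The median difference was 0.69 over the 57 genes, 1.06 over the origin and MCM genes and 0.25 over the mismatch, excision and double-strand break repair genes, against 0.00 over all genes tested. These values moved with replicate 3 of CC-4533. That library was the lowest of its strain in 45 of the 57 genes, against 41.2% of all genes, and lay under 0.5 times the mean of replicates 1, 2 and 4 in 31 of the 57, against 12.5% of all genes. In 0 of the 57 genes did it exceed 2 times that mean, although 11.5% of all genes did so. Without it, 47 of 58 genes were called higher (31.2% of all genes) and 2 lower (32.2% of all genes), POLQ2 among the higher ones having passed the filter through CC-4533 alone, and the medians became 1.16, 1.54 and 0.40. Why this library differed was not tested.

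The 3 remaining CC-4533 replicates lay above all 24 libraries of the other strains in 28 of the 57 genes, which 5.22% of all genes did. They lay below all 24 in 1 gene, AGE1, which 5.65% of all genes did. With replicate 3 included, 1 gene, MLH2, lay above all 24, as did 1.43% of all genes. Against a 2-fold change (limma's treat test at an adjusted p below 0.01), 0 of the 57 genes passed with all 4 replicates, where 0.967% of all genes did, and 3 passed at an unadjusted p below 0.05, where 2.54% of all genes did. Without replicate 3, 8 of 58 passed, where 1.54% of all genes did: CDT1, MSH6, ORC1, POLA1, POLA2, POLE1, POLE2 and RFC1.

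**Figure D4:**
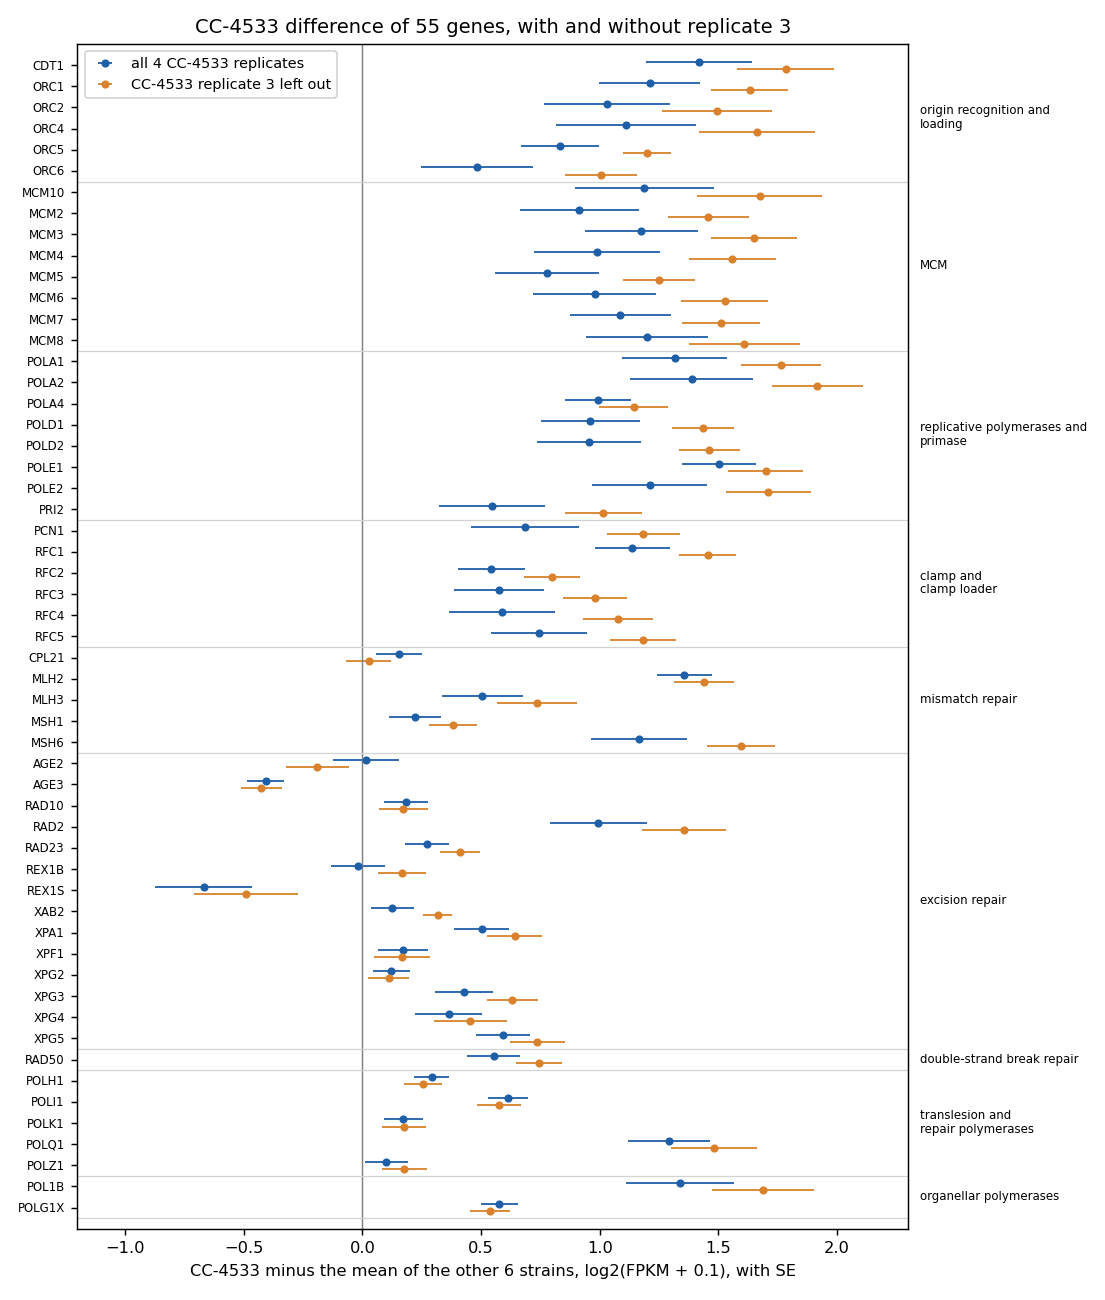
Difference of CC-4533 from the mean of the other 6 strains in log2(FPKM + 0.1), with its SE, for 55 genes in rows by role (AGE1 and 1 gene not reported left out), with all 4 CC-4533 replicates in blue and without replicate 3 in orange. The orange points of the upper 4 blocks lie between 0.80 and 1.92, to the right of the blue ones, while AGE3 and REX1S lie left of 0 in both.

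Within its own library set, CC-4533 exceeded CC-125 in 45 of 57 genes, where 22.1% of all genes were called higher. AGE1 and AGE3 were called lower, a direction not counted over all genes. The largest positive difference was that of POLQ1, the polymerase of theta-mediated end joining, at 2.11 (adjusted p = 2.09e-08). Without replicate 3, 47 of 58 genes were called higher, where 26.0% of all genes were. Both counts include POL1B, which passed the filter through CC-4533 alone, and the 58 include POLQ2, which did so as well. Against CC-124, another high strain, CC-4533 was called higher in 8 of 57 genes, where 23.5% of all genes were called, and these were XPA1, POLI1, POLE1, MLH2, POLH1, POLG1X, RFC1 and XPG4. AGE1, POLZ1, REX1S and AGE3 were called lower than in CC-124, a direction again not counted over all genes. Without replicate 3 the number called higher became 36 of 58 genes, POL1B among them, where 26.1% of all genes were called. Without CC-4533 replicate 1 it became 4, and without CC-4533 replicate 2 or 4 or CC-124 replicate 2 or 3 it became 5, so single libraries decided how many genes placed CC-4533 above CC-124.

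The other strains were each set against the mean of the remaining 6 in the same way, and these comparisons share libraries with each other. CC-124 was called higher in 42 of 57 genes (25.6% of all genes) and lower in 2, POLH1 and XPG4 (27.9% of all genes). The 42 include MLH3, which passed the filter through CC-124 alone. CC-1690 was called higher in 20 (34.2% of all genes), among them 6 of 6 clamp genes and 4 of 8 MCM genes, and lower in 9 (35.3% of all genes), of which 0 were replication genes of the nucleus. CC-1009 was called lower in 37 (24.5% of all genes) and higher in 5: PRI2, POLG1X, POLZ1, XPG2 and XPG4 (25.4% of all genes). CC-4532 was called lower in 35 (27.4% of all genes) and higher in 4: CPL21, XPF1, AGE2 and AGE3 (26.6% of all genes). Of these 4, XPF1 passed the filter through CC-4532 alone.

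CC-125 was called lower in 21 genes (28.5% of all genes) and higher in 3: CPL21, POLI1 and RAD23 (30.4% of all genes). CC-1691 had the fewest calls, with 10 genes lower (23.6% of all genes) and 2 higher, AGE1 and XPG2 (23.4% of all genes), of which AGE1 reversed within library set 1. Both strains were tested against a mean that includes CC-4533. Without CC-4533 replicate 3, 37 genes were called in CC-125 and 22 in CC-1691 in either direction, against 24 and 12 with it. In CC-124 and CC-1690, replicate 2 was the lowest of its strain in 40 and 47 of the 57 genes, against 27.9% and 29.9% of all genes. Without replicate 1 of CC-124, 25 genes were called in that strain in place of 44. Without replicate 1 of CC-1691, 7 were called there in place of 12. For these counts with a library left out, the share of all genes is not given.

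In the mismatch repair family, MSH6 followed the replication genes. MSH6, a MutS homolog that recognizes mispaired bases, was at 14.8, 14.8 and 13.8 FPKM in CC-4533 replicates 1, 2 and 4 and 4.30 FPKM in replicate 3, against 2.48, 4.25 and 8.99 FPKM as the lowest, median and highest value of the other strains (1.17 ± 0.20, adjusted p = 2.36e-05). MLH2, a MutL homolog, was at 2.32, 2.45, 1.9 and 2.52 FPKM in CC-4533, at 1.89, 1.48, 1.75 and 1.76 FPKM in CC-124 and at 0.49 to 1.13 FPKM in the other 5 strains. All 4 CC-4533 replicates lay above every other library, replicate 3 by 0.01 FPKM, and the difference was 1.36 ± 0.12 (adjusted p = 2.02e-10).

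MLH3, another MutL homolog, was at 0.88, 1.16 and 1.28 FPKM in CC-4533 replicates 1, 2 and 4 and 0.53 FPKM in replicate 3, at 0.89 to 1.5 FPKM in CC-124 and at 0.29 to 0.64 FPKM in CC-1690. MSH1, whose relatives act in organelles of plants, was at 5.14, 6.19 and 6.24 FPKM in CC-4533 replicates 1, 2 and 4, 3.70 FPKM in replicate 3 and 3.27 to 5.63 FPKM elsewhere. It was not called in CC-4533 with all 4 replicates (0.22 ± 0.11, adjusted p = 0.0819) and was called higher without replicate 3 (0.38 ± 0.10, adjusted p = 0.00201). CPL21, annotated as a MutS type 2 protein, was highest in CC-4532 at 4.10, 3.59, 3.38 and 3.20 FPKM (0.47 ± 0.10, adjusted p = 0.000263) and lowest in CC-1690 at 1.78, 2.06, 1.92 and 1.44 FPKM, below every library of the other strains. MSH4 and MSH5, which act in meiotic crossing over, were listed at 0 to 0.25 FPKM and at 0 to 0.14 FPKM in these vegetative cultures and did not pass the filter.

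Excision repair genes mostly had orders of strains of their own. AGE1, annotated as a DNA repair glycosylase, the kind of enzyme that cuts out single damaged bases, was listed at 0, 0.02, 0.01 and 0 FPKM in CC-4533, against 0.44, 0.97 and 3.56 FPKM as the lowest, median and highest value of the other strains. All 4 replicates, replicate 3 included, lay below every other library (F test adjusted p = 2.5e-16, the smallest of the 57 genes). No fold is given because the values lie at the last decimal of the table. AGE1 was highest in CC-1690 (2.37, 1.45, 3.56 and 2.97 FPKM) and CC-124 (2.32, 1.52, 2.23 and 1.98 FPKM), and the fitted differences of every other strain for this gene contain the low CC-4533 value. Against the other strains of library set 1 alone, the difference was 0.77 ± 0.15 in CC-124 (adjusted p = 8.32e-05) and 1.14 ± 0.15 in CC-1690 (adjusted p = 2.16e-07). In CC-1691, at 0.96, 0.98, 1.07 and 1.00 FPKM, it turned to -0.38 ± 0.15 (adjusted p = 0.0364), so the higher call of AGE1 in CC-1691 rested on CC-4533 and CC-125. The related AGE2 and AGE3 were not low in CC-4533 to that extent. AGE3 was at 2.07, 1.53, 1.95 and 1.97 FPKM in CC-4533 (-0.41 ± 0.08, adjusted p = 8.08e-05) and at 3.65, 3.31, 3.24 and 3.41 FPKM in CC-4532, above every other library. AGE2 was at 2.06, 2.04, 2.01 and 2.16 FPKM in CC-4532, the largest positive difference of that strain (0.59 ± 0.14, adjusted p = 0.000964).

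RAD2, an XPG homolog of the nucleotide excision pathway, had its highest strain mean in CC-4533 and its lowest in CC-1009, as most replication genes did. It was at 16.0, 16.9 and 17.9 FPKM in CC-4533 replicates 1, 2 and 4 and 6.18 FPKM in replicate 3, at 11.5, 7.84, 15.8 and 15.7 FPKM in CC-1690 and at 3.56 to 5.14 FPKM in CC-1009 (CC-4533 difference 0.99 ± 0.20, adjusted p = 0.000177). The 4 other XPG-type nucleases are annotated as 5'-3' exonucleases, and 0 of them had their lowest mean in CC-1009, where 11.8% of all genes did. XPG2 was at 2.04, 1.75, 2.28 and 2.11 FPKM in CC-1690 and at 2.84 to 4.32 FPKM in all other libraries, with no overlap (-0.76 ± 0.08, adjusted p = 4.32e-09). XPG3 was at 0.66, 0.75, 0.75 and 0.66 FPKM in CC-125 and at 1.03 to 2.24 FPKM elsewhere (-0.93 ± 0.12, adjusted p = 3.28e-07). It was called higher in CC-4533, at 2.24, 1.78 and 1.94 FPKM in replicates 1, 2 and 4 and 1.08 FPKM in replicate 3 (0.43 ± 0.12, adjusted p = 0.00401). XPG4 was highest in CC-1009 (8.30 to 12.8 FPKM) and CC-4533 (8.49 to 14.98 FPKM, replicate 3 at 8.69 FPKM) and was the gene with the largest negative difference in CC-124 (-0.34 ± 0.14, adjusted p = 0.045), a call close to the threshold that 20 of the alternatives ended. XPG5 was at 1.72 to 2.12 FPKM in CC-4533 replicates 1, 2 and 4, 1.24 FPKM in replicate 3 and at most at 1.43 FPKM elsewhere (0.59 ± 0.12, adjusted p = 8.84e-05).

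RAD23, which hands damaged sites to the excision machinery, was the most abundant repair gene. It was at 35.5, 39.8 and 44.5 FPKM in CC-4533 replicates 1, 2 and 4 and 27.1 FPKM in replicate 3, at 34.2 to 39.7 FPKM in CC-125, 27.7 to 39.9 FPKM in CC-124 and 37.7 to 49.7 FPKM in CC-1690, and at 21.6 to 28.5 FPKM in CC-1009, CC-1691 and CC-4532. In CC-1691 its 4 libraries lay below all others, at 21.6, 22.4, 21.7 and 22.7 FPKM (-0.55 ± 0.09, adjusted p = 2.71e-05). It had the largest positive difference of CC-125 (0.34 ± 0.09, adjusted p = 0.00276). XPA1, the damage-verifying factor of nucleotide excision, was called higher in CC-4533 (2.47 to 3.27 FPKM in replicates 1, 2 and 4, 1.96 FPKM in replicate 3) and in CC-1690 (2.29 to 3.35 FPKM), and was at 1.34 to 2.17 FPKM in the other strains. XPF1 and RAD10, the partners of the nuclease that cuts on the 5' side of damage, both had their lowest strain mean in CC-125 (0.56 and 2.85 FPKM) but differed in range. XPF1 was at 0.44 to 0.62 FPKM in CC-125 and 1.12 to 1.35 FPKM in CC-4532, the only strain where its mean exceeded 1 FPKM. RAD10 stayed at 2.5 to 4.05 FPKM in all libraries. REX1S, annotated as the TFB5 subunit of transcription factor IIH, was at 3.34 to 4.2 FPKM in CC-4533 replicates 1, 2 and 4, 2.32 FPKM in replicate 3 and 5.07 to 13.2 FPKM in CC-124, a wide spread within strains, and its CC-4533 call (-0.67 ± 0.20, adjusted p = 0.00649) was lost without replicate 3 (adjusted p = 0.0536).

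RAD50, part of the complex that holds broken DNA ends, was at 7.13, 6.78 and 6.75 FPKM in CC-4533 replicates 1, 2 and 4, above the highest value of any other strain (5.87 FPKM), and at 4.04 FPKM in replicate 3 (0.55 ± 0.11, adjusted p = 0.000137). POLQ1, a theta polymerase gene, was at 1.94, 1.96, 1.07 and 1.74 FPKM in CC-4533 and at 0.31, 0.29, 0.29 and 0.32 FPKM in CC-125, where it lay below every other library (-1.17 ± 0.17, adjusted p = 2.3e-06). The second theta gene, POLQ2, missed the filter with all 4 replicates. It was at 1.36, 1.05, 0.49 and 1.06 FPKM in CC-4533 and at most at 0.96 FPKM elsewhere. POLQ2 passed the filter without replicate 3 through CC-4533 alone. Its CC-4533 values are therefore only a description, although it is counted among the 58 genes of that fit.

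The translesion polymerases varied on a smaller scale. POLI1, polymerase iota, was at 3.15, 3.45, 3.83 and 3.73 FPKM in CC-4533, replicate 3 being the highest of the 4, against 1.66, 2.21 and 3.43 FPKM as the lowest, median and highest value elsewhere (0.61 ± 0.08, adjusted p = 8.26e-07). POLZ1, polymerase zeta, was at 1.58, 1.76, 1.61 and 1.32 FPKM in CC-124 and at 0.45 to 1.21 FPKM in all other libraries, without overlap (0.81 ± 0.09, adjusted p = 3.47e-08). POLK1, polymerase kappa, was at 0.90, 1.04, 1.15 and 1.12 FPKM in CC-125 and at 1.23 FPKM or more elsewhere (-0.57 ± 0.08, adjusted p = 1.62e-06). POLH1, polymerase eta, stayed at 2.47 to 4.31 FPKM.

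The polymerases assigned to the organelles went different ways. POLG1X, annotated as a putative organellar polymerase gamma, was at 5.88, 6.44, 6.73 and 6.44 FPKM in CC-1009 and lay above every other library there (1.02 ± 0.08, adjusted p = 3.65e-11). In CC-1690 it was at 2.40, 1.69, 2.16 and 1.82 FPKM, below every other library (-0.88 ± 0.08, adjusted p = 3.63e-10), and in CC-4533 at 4.82, 4.75, 5.29 and 4.67 FPKM, with replicate 3 the highest. POL1B and POL1C, both annotated as probably mitochondrial polymerase I, had different orders of strains. POL1B was at 1.62, 1.81 and 1.51 FPKM in CC-4533 replicates 1, 2 and 4, 0.56 FPKM in replicate 3, and 0.20 to 1.00 FPKM elsewhere. POL1C, below the filter, was at 0.21, 0.34 and 0.31 FPKM in CC-4533 replicates 1, 2 and 4, 0.57 FPKM in replicate 3, and 0.61 to 0.83 FPKM in CC-1691 and CC-4532.

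**Figure D5:**
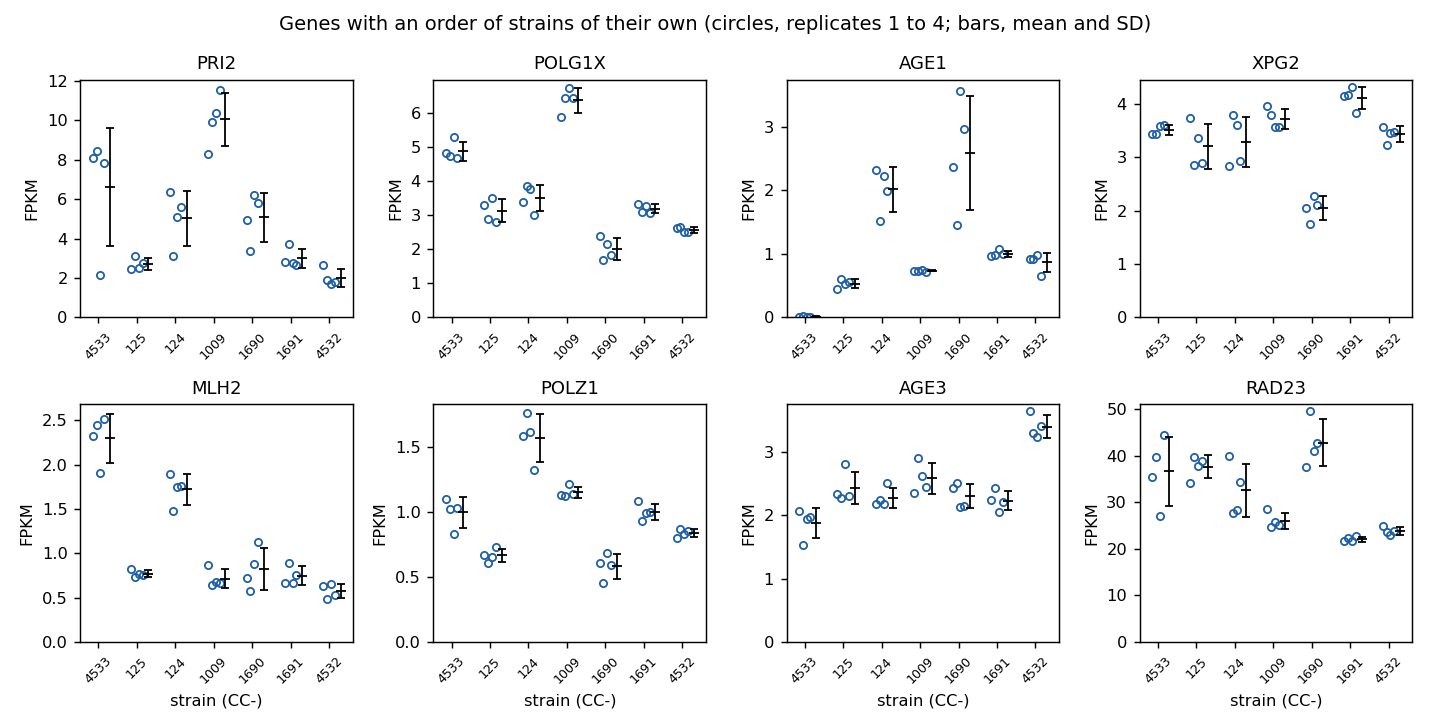
FPKM of PRI2, POLG1X, AGE1, XPG2, MLH2, POLZ1, AGE3 and RAD23 in the 7 strains, with circles for replicates 1 to 4 from left to right and bars for the mean and SD (n = 4). PRI2 and POLG1X are highest in CC-1009, AGE1 lies at 0 to 0.02 in CC-4533, XPG2 is low in CC-1690, POLZ1 is high in CC-124 and AGE3 is high in CC-4532.

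The steadiest genes were all repair genes. Among those above 1 FPKM in every strain, with all 4 CC-4533 replicates, the smallest ratios of highest to lowest strain mean were those of RAD10 (1.24), XAB2 (1.3), MSH1 (1.42), POLH1 (1.44) and REX1B (1.62). XAB2, annotated as a transcription-coupled repair protein and possible splicing factor, was at 15.7, 15.2 and 15.5 FPKM in CC-4533 replicates 1, 2 and 4 and at 9.09 FPKM in replicate 3, against 9.99 to 14.3 FPKM elsewhere, so its small range of means hid a CC-4533 difference that passed without replicate 3 (0.32 ± 0.06, adjusted p = 7.1e-05). REX1B was at 4.18 to 9.03 FPKM in all libraries. Of the genes below the filter and not given above, POLH2, a second eta gene, was at 0.24 to 0.66 FPKM and POLL1, polymerase lambda, at 0.30 to 0.82 FPKM.

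Genes outside the 63 that work beside them showed the same order of strains in part. The 3 subunits of ribonucleotide reductase, which makes deoxynucleotides, carry another wording in their definitions and were looked up after these had been read. RIR2 was at 71.9, 67.7 and 71.2 FPKM in CC-4533 replicates 1, 2 and 4 and 18.6 FPKM in replicate 3, with strain means of 51.8 FPKM in CC-124 and 12.9 FPKM in CC-1009 (CC-4533 difference 1.33, adjusted p = 2.62e-05). RIR1 was at 89.45, 75.51 and 73.94 FPKM in CC-4533 replicates 1, 2 and 4 and 18.18 FPKM in replicate 3. Its strain means were 64.27 FPKM in CC-4533, 62.56 FPKM in CC-124 and 23.7 FPKM in CC-1009 (CC-4533 difference 0.683, adjusted p = 0.0152). RIR2L averaged 13.6 FPKM in CC-4533 and 13.0 to 18.7 FPKM in the other strains. Among listed companions, the licensing and firing genes CDC6, CDC45 and TOPBP1 were called higher in CC-4533 in 3 of 3 cases, fork and nucleotide genes in 12 of 17, cell cycle genes in 21 of 32 (2 lower) and recombination genes in 8 of 9, against 29.2% of all genes higher and 30.3% lower. The fork and nucleotide list was matched by words, and its 12 include SPO11A and SPO11B, annotated as meiosis-related topoisomerases. In CC-1690, 17 of the 32 cell cycle genes were called higher and 6 lower, against 34.2% and 35.3% of all genes. Cyclin B, CYCB1, which drives mitosis, averaged 51.0 FPKM in CC-4533, 44.5 FPKM in CC-124, 15.8 FPKM in CC-1690 and 13.4 FPKM in CC-1009. The low CC-1690 level was not shared by all cell cycle genes. In the same order of strains, CKS1 averaged 69.9, 79.1, 106.9 and 33.3 FPKM, and CDKB1 averaged 28.5, 20.2, 18.0 and 6.87 FPKM.

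Markers of sexual cells were read beside replicate 3 of CC-4533, since the replication genes were low there. HAP2, the fusogen of minus gametes, was at 5.22 FPKM in replicate 3, at 0.61, 1.00 and 1.26 FPKM in replicates 1, 2 and 4, and at most at 1.05 FPKM in the other strains. NSG13, an mRNA named for nitrogen-starved gametes, was at 7.16 FPKM in replicate 3 and at 0.42, 0.47 and 0.45 FPKM in replicates 1, 2 and 4, but within the 1.01 to 9.37 FPKM of the other strains. NSG1, of the same class, went the other way, at 13.6 FPKM in replicate 3 and 119, 122 and 145 FPKM in replicates 1, 2 and 4. Of the 12 gamete markers, 6 were above and 5 below the range of the other replicates in this library, against 42.8% and 41.2% of all genes, and their sum was 180 FPKM there and 130 to 620 FPKM over all libraries. FUS1, a plus gamete gene, was listed at 0 in every library of the minus strains, so its 0 in this library carries no information on gametes. The part of the gamete markers in the low replication genes was not tested.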

How the data were processed

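RNA of 28 cultures, 4 replicates of 7 strains, was analyzed, with strain, replicate and mating type taken from the labels, the library set from the library names and the growth conditions from the study's methods. Per strain, the 4 flasks were inoculated in 1 batch (CC-125, CC-4533) or in 2 (the rest), and the replicates of a batch are not named. Reads of 50 nt were mapped by the authors with STAR to version v6.1 of the CC-4532 assembly. Gene assignment used featureCounts (strand-specific, 1 location per multimapping read, counted as a fraction), and the authors computed the deposited FPKM values with DESeq2 and rounded them to 2 decimals. The replicate table was used and the table of strain means was not. 0 columns were left unmapped. In 1 line the definition was split and was rejoined, and 153 definitions carried the gene ID in place of the letters NA, by which 2 genes escaped the phrases. Depth is unknown: a search for steps of single reads in the rounded values gave no usable depth, and no counting error is given.

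R 4.3.3 with limma 3.58.1 fitted log2(FPKM + 0.1) by a strain means model with a variance trend over all 28 libraries, for genes with a strain mean above 1 FPKM, with Benjamini-Hochberg adjustment over all of them. A fold on this scale understates changes of low genes. Strain contrasts were called at an adjusted p below 0.05. Plots were drawn in Python 3.11.15 with matplotlib 3.10.9.

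The genes, roles and companion lists were chosen with earlier results of these data known. Named are all ORC, MCM, PCNA, RFC, primase and alpha, delta and epsilon polymerase genes, the 10 others with the smallest F test p, the largest called difference of each strain in each direction and the 5 steadiest genes. Others named in the text were added after their values were seen. Alternatives were pseudocounts of 1 and 0.01, median ratio scaling, quantile normalization, no filter or one at 5 FPKM, a replicate block, other thresholds, contrasts within a library set and each library left out. Promoter motifs and protein sequences were not analysed here. The values of 1 gene that entered the fits and counts are not reported here. The replicates of a strain were separate cultures, some started together, and p-values measure the spread between them.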

Additional observations from a re-analysis of the deposited data

Results flagged for a closer look

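Within a strain, a library was looked at again when the gap between it and its nearest neighbour took up most of the range of the 4 replicates (Dixon's test), which chance passes in about 1 of 20 groups. On the median level of each role, in log2(FPKM + 0.1) relative to each gene's mean over strains, replicate 3 of CC-4533 was low for all 57 genes together (-0.26, against 0.95 to 1.06 in the other 3 replicates), for origin recognition and loading (-0.44, against 1.3 to 1.46), for the MCM family (-0.60, against 1.36 to 1.42), for MCM2 to MCM7 alone (-0.77, against 1.33 to 1.42), for the replicative polymerases and primase (-0.43, against 1.35 to 1.44) and for the clamp and its loader (-0.69, against 0.84 to 1.09). Excision repair, mismatch repair and the translesion polymerases did not pass this limit in that library. Mismatch repair (-0.09, against 0.78 to 1.02) and excision repair (-0.18, against 0.16 to 0.28) were still lowest there. The translesion polymerases were not (0.36, against 0.16 to 0.29). Replicate 1 of CC-1009 was high for the clamp and its loader (-0.51, against -0.79 to -0.75). Gene by gene, 29 of the 57 genes stood apart as low in CC-4533 replicate 3, and 22 further cases were spread over the other libraries and directions, out of 399 groups of 4 looked at. This limit was not applied to all genes tested, so no share stands beside the 29. In CC-4533 replicate 3, 21.0% of all genes tested differed by over 2-fold from the average of the other replicates.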

How the results depend on the processing

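Apart from the values above, the numbers tested and the shares of all genes called are not given for these alternatives. The counts therefore show only how the calls of these genes moved. A filter at 5 FPKM in place of 1, which removes genes, left 25 genes that differed between strains, 27 higher and 1 lower in CC-4533, 26 higher than in CC-125, 4 higher than in CC-124, and 12 called in CC-125, 25 in CC-124, 27 in CC-1009, 17 in CC-1690, 7 in CC-1691 and 24 in CC-4532. Without a filter 5 genes were lower in CC-4533. At an adjusted p below 0.01, 4 genes were higher in CC-4533 than in CC-124, 25 were called in CC-124 and 6 in CC-1691. Against CC-4533 alone 47 were called in CC-125. With each library left out in turn, counts ranged from 0 to 8 past 2-fold in CC-4533 (8 without CC-4533 replicate 3, 1 without CC-1690 replicate 2, otherwise 0), 4 to 36 higher than in CC-124, 17 to 37 called in CC-125, 25 to 45 in CC-124 and 7 to 22 in CC-1691, while those higher in CC-4533 ranged from 36 to 47 and those differing between strains from 42 to 46. The cause was not tested. The CC-4533 difference of REX1B, which was not called (-0.02), reversed to 0.067 under quantile normalization and ranged from -0.15 to 0.17 (without CC-4533 replicate 3) with a library left out. That of AGE2, not called (0.02), ranged from -0.19 (without CC-4533 replicate 3) to 0.18. Over 56 pairs of a gene and a strain, 1885 of 1938 values kept direction and call, 39 lost the call (20 of them XPG4 in CC-124) and 9 gained it. The replicate numbers did not pair the cultures: over 84 same-numbered pairs the correlation of deviations was -0.372 to 0.281 (median 0.002). With the replicate number as a block, 43 genes differed, 43 were higher in CC-4533, 44 higher than in CC-125 and 42 called in CC-124, and XPG4 in CC-124 lost its call (adjusted p = 0.0554).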
